A study of Mus musculus with 9 samples.

Results

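The expression of 10 genes that take lipid into the cell, store it or move it out was followed in neutrophils sorted from mouse lung. They were *Cd36*, *Olr1*, *Msr1*, *Acsl1*, *Dgat1*, *Dgat2*, *Plin2*, *Pnpla2*, *Abca1* and *Abcg1*. They were picked by gene symbol, with earlier results of these data known, and make up 10 of the 22064 genes listed in the count and FPKM tables. All 10 had values in all 9 libraries and passed the filter on low counts, as did 14108 of the 18325 genes with values. The lowest count of any member in any library was 186, for *Msr1* in a Ly6Glow library.

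Bulk RNA-seq covered 3 groups of 3 libraries, all from the lungs of female BALB/c mice that were bought at 6 to 8 weeks of age. The Ly6Ghi and Ly6Glow groups were neutrophils with high and low Ly6G from mice bearing 4T1-LM3 mammary tumors, a lung-tropic derivative of the 4T1 line, taken at the macrometastatic stage after implantation in the mammary fat pad. NL was the group of Ly6G-high neutrophils from normal lung. Cells were sorted on CD45 and Ly6G after mechanical and collagenase dissociation of the lung, and CD11b was stained as well in the lung neutrophil isolation. Endothelial cells, epithelium and fibroblasts carry neither CD45 nor Ly6G, but their marker transcripts were found in all 3 groups (below). Whether a library held cells of a single mouse or of a pool is not given in the sources used here. If replicates were not separate mice, the p-values measure only the spread between these libraries.

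Neutrophils are short-lived granulocytes that can hold cytoplasmic lipid droplets. Fatty acids and modified lipoproteins enter myeloid cells through scavenger receptors. The fatty acids are activated by acyl-CoA synthetases and esterified to triglyceride by the DGAT enzymes, and triglyceride is stored in droplets coated by perilipins. Adipose triglyceride lipase, the product of *Pnpla2*, starts the breakdown of that triglyceride, and the transporters ABCA1 and ABCG1 pass cholesterol and phospholipid to apolipoprotein A-I and to HDL.

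Library totals ran from 15267177 to 17841807 estimated read counts, and libraries of a group correlated at 0.990 or more on the log2 scale, against at most 0.975 between groups. Transcript of *Ly6g*, which encodes the protein used for the sort, was 380, 361 and 380 CPM (counts scaled to library size) in the Ly6Ghi libraries and 385, 403 and 394 CPM in the Ly6Glow libraries, so its mRNA was no lower in the cells sorted as Ly6G-low (log2 fold change 0.08 ± 0.033 SE, edgeR adjusted p = 0.0577). In NL it was 118 to 120 CPM. Neutrophil markers such as *S100a8* and *S100a9* were present throughout, but the 12 neutrophil markers summed to 22202 to 22492 CPM in NL, 87224 to 89360 in Ly6Ghi and 82848 to 84667 in Ly6Glow. Summed markers of other lung cells were higher in NL: endothelial (947 to 1023 CPM, against 143 to 148 in Ly6Ghi and 175 to 182 in Ly6Glow), alveolar epithelium (1674 to 1825, 393 to 405 and 408 to 417), fibroblast (742 to 791, 77.2 to 82.7 and 80.3 to 85.7) and alveolar macrophage (2714 to 2737, 1757 to 1804 and 452 to 473). Single markers could differ from their sum. Of 10 epithelial markers, 8 were called lower and 1, *Napsa*, higher in each tumor-bearing group (150 and 149 against 72.7 CPM). *Chil3*, the most abundant gene on the alveolar macrophage list, averaged 1274 CPM in Ly6Ghi, 277 in Ly6Glow and 964 in NL. The list sums averaged 1775, 464 and 2725 CPM, so *Chil3* made up most of the sum in both tumor-bearing groups. The 2 of 12 neutrophil markers called lower in Ly6Glow than in Ly6Ghi, *Camp* (159 against 934 CPM) and *Ltf* (3052 against 11444 CPM), fell as *Chil3* did. Which cells the *Chil3* transcript came from was not tested. Platelet markers came to 15.9 to 16.9 CPM in NL and under 11 in the other groups. No list was at 0 as a whole in any group, and fewer cells of a type cannot be told apart from less RNA per cell in such bulk samples.

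**Figure D1:**
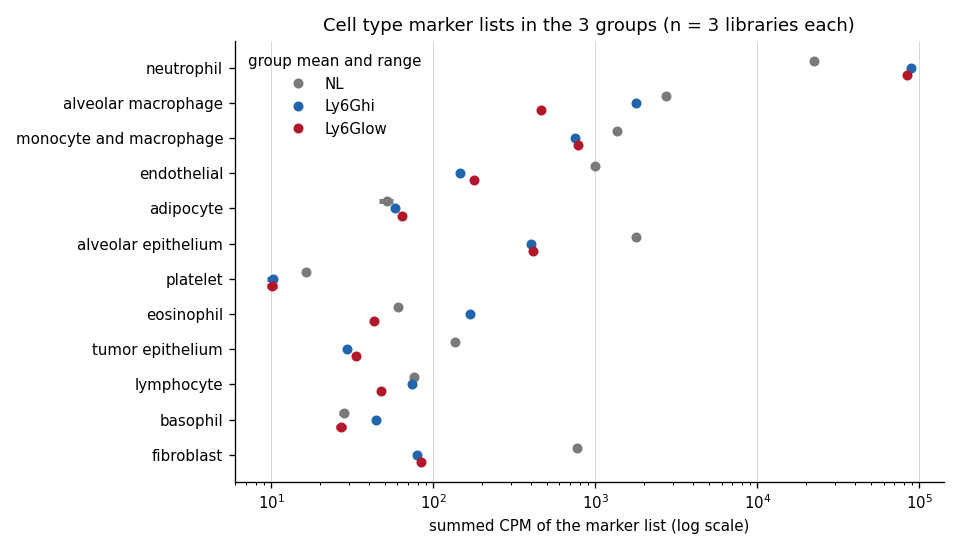
Summed CPM of 12 cell type marker lists (rows) on a log scale. Points are group means and thick lines, where wider than the point, the range of the 3 libraries of NL (grey), Ly6Ghi (blue) and Ly6Glow (red). Sums of endothelial, epithelial and fibroblast markers were highest in NL, and the alveolar macrophage sum fell from 2714 to 2737 CPM in NL to 452 to 473 CPM in Ly6Glow.

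Levels below are CPM on TMM-scaled library sizes, with the 3 libraries of a group given in order of their replicate number. A gene is called different at an edgeR adjusted p of at most 0.05, over all 14108 tested genes, together with a log2 fold change beyond 0.58 in size. Of the 10 members, 3 were called higher and 3 lower in Ly6Glow than in Ly6Ghi, beside 9.29% of all tested genes higher and 15.9% lower, or 25.2% in all. Ly6Ghi against NL gave 3 higher and 3 lower members, beside 26.3% and 36.6% of all tested genes (62.9% in all). Ly6Glow against NL gave 4 and 4, beside 28.7% and 40.8% (69.5% in all). Both comparisons with NL use the same 3 NL libraries. FPKM is not TMM-scaled, and the TMM factors were 0.945 to 0.950 in Ly6Ghi, 0.803 to 0.807 in Ly6Glow and 1.30 to 1.32 in NL. The members' fold changes differed on log2(FPKM + 1) from those of the count test by −0.28 to −0.12 for Ly6Glow over Ly6Ghi, −0.50 to −0.37 for Ly6Ghi over NL and −0.75 to −0.53 for Ly6Glow over NL on the log2 scale, and 9 of 10 kept their sign in each. The libraries of the groups compared did not overlap for 10, 10 and 9 of the 10 members in these comparisons, beside 62.1%, 85.2% and 86.8% of all tested genes. The members' median log2 fold change was 0.31 for Ly6Glow over Ly6Ghi, −0.06 for Ly6Ghi over NL and −0.01 for Ly6Glow over NL, and that of all tested genes was −0.04, −0.09 and −0.16. Members thus moved in both directions in each comparison, and the shares called against NL lay near those of all genes.

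**Figure D2:**
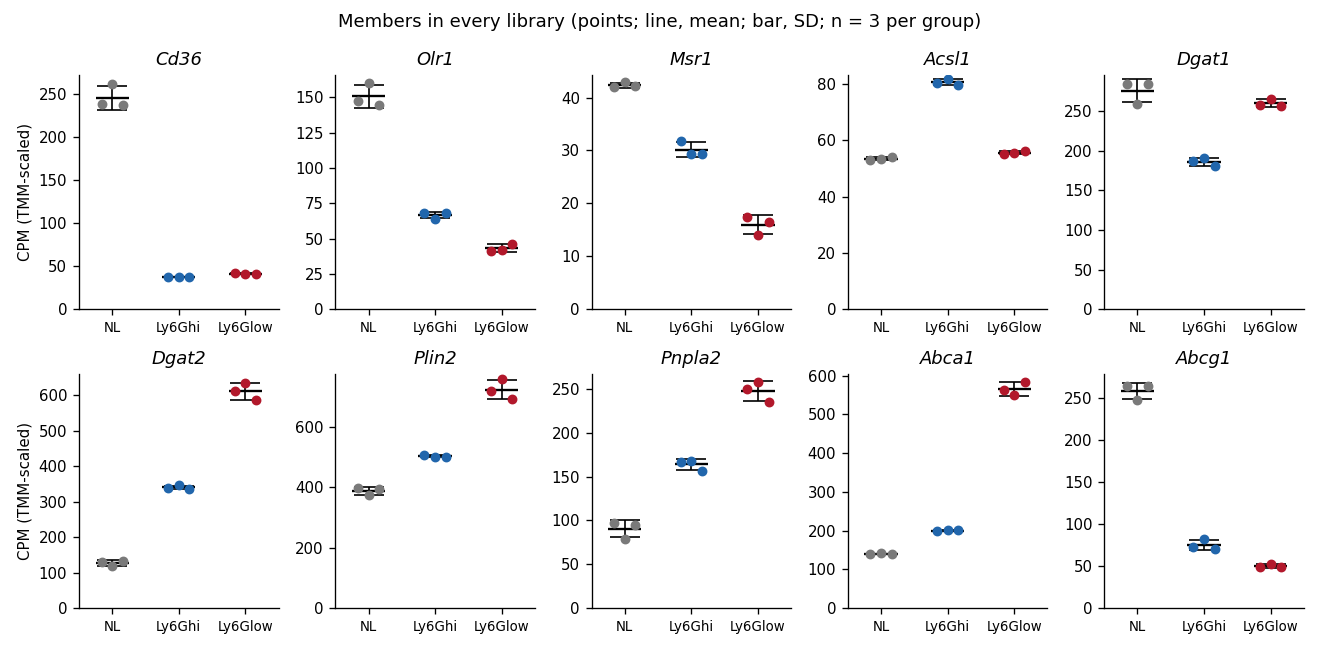
CPM (vertical axes, starting at 0) of the 10 genes in NL (grey), Ly6Ghi (blue) and Ly6Glow (red). Points are libraries, the long line is the group mean and the bar its SD (n = 3). *Cd36* and *Abcg1* were highest in NL, whereas *Dgat2*, *Plin2*, *Pnpla2* and *Abca1* were highest in Ly6Glow, with *Dgat2* at means of 127, 340 and 611 CPM.

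Of the 3 scavenger receptor genes for lipid, *Cd36* and *Olr1* were called lower than NL in both tumor-bearing groups, and *Msr1* in Ly6Glow only. *Cd36* encodes a receptor for long-chain fatty acids and oxidized LDL and lies on chromosome 5 (17781690 to 17888959; gene positions are RefSeq on GRCm38.p6, the assembly of mm10). Its level was 37.3, 38.0 and 37.2 CPM in Ly6Ghi, 41.6, 41.1 and 41.5 CPM in Ly6Glow, and 238, 261 and 236 CPM in NL. Every NL library thus held more than any tumor-bearing library, and the fall was 6.53-fold in Ly6Ghi (log2 fold change −2.71 ± 0.046 SE, adjusted p = 3.47e-22) and 5.92-fold in Ly6Glow (−2.57 ± 0.047, adjusted p = 8.56e-22). Between Ly6Glow and Ly6Ghi the libraries did not overlap, but the difference was small and below the fold threshold (0.14 ± 0.057, adjusted p = 0.0391), and on log2(FPKM + 1) it turned to −0.09. Endothelial cells also express *Cd36*, and all 9 endothelial markers were called lower against NL in both groups. Between Ly6Glow and Ly6Ghi 0 of 9 was called by edgeR or DESeq2 (5 higher at an unadjusted p of at most 0.05, 0 lower). Among them, *Pecam1* averaged 63.2 CPM in Ly6Ghi, 84.2 in Ly6Glow and 255 in NL, and *Cdh5* 25.9, 29.6 and 205 CPM. Their part in the *Cd36* difference was not tested.

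*Olr1*, which encodes the oxidized LDL receptor LOX-1 (chromosome 6, 129479150 to 129507350), fell in steps. Ly6Ghi held 68.1, 64.0 and 68.0 CPM, Ly6Glow 41.6, 41.9 and 46.4 CPM, and NL 147, 160 and 145 CPM. The 3 groups were apart from each other: Ly6Ghi was 2.26-fold below NL (−1.18 ± 0.048, adjusted p = 8.43e-16), Ly6Glow 3.48-fold below NL (−1.80 ± 0.053, adjusted p = 1.89e-18) and Ly6Glow 1.54-fold below Ly6Ghi (−0.62 ± 0.058, adjusted p = 5.42e-09). The last of these did not pass the fold threshold with DESeq2 (−0.56).

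*Msr1*, encoding the class A scavenger receptor (chromosome 8, 39543232 to 39642750), was lowest in Ly6Glow. It stood at 31.7, 29.3 and 29.4 CPM in Ly6Ghi, 17.4, 14.0 and 16.5 CPM in Ly6Glow and 41.9, 42.8 and 42.1 CPM in NL. The groups did not overlap, and Ly6Glow was 1.89-fold under Ly6Ghi (−0.92 ± 0.075, adjusted p = 7.30e-10) and 2.65-fold under NL (−1.41 ± 0.070, adjusted p = 2.31e-14). Ly6Ghi and NL differed below the fold threshold (−0.49 ± 0.059, adjusted p = 1.26e-07), although the value passed it with upper-quartile normalization (−0.68) and on log2(FPKM + 1) (−0.99). Macrophages express *Msr1* and *Olr1* too, and 11 of the 16 alveolar macrophage markers were called lower in Ly6Glow than in Ly6Ghi, among them *Mrc1* at 28.6 against 119 CPM and *Chil3* at 277 against 1274 CPM, while 1, *Kcnip4*, was called higher (chosen after its values were seen). *Itgax*, at 44.6 against 65.3 CPM, was not called. Unlike *Mrc1*, *Chil3* was highest in Ly6Ghi and not in NL, where it averaged 964 CPM, and its cells of origin were not tested (above). Of the 14 monocyte and macrophage markers 5 were lower and their sums were alike (761 to 787 against 745 to 754 CPM). The part of these cells in the *Msr1* and *Olr1* values was not tested.

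RefSeq promoter windows on the same assembly were at hand for 6 of the 10 genes (7 windows, *Acsl1* with a pair of them), each running from 250 bases before to 50 after a transcript start; *Msr1*, *Dgat1*, *Dgat2* and *Abcg1* had no entry. The windows of the receptors that fell and of *Plin2* and *Abca1*, which were highest in Ly6Glow, are shown for comparison of their sequence. They are from the reference strain, not BALB/c. Searched on both strands were the nuclear receptor hexamer AGGTCA, its direct repeats spaced by 4 bases (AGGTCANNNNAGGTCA, as bound by LXR with RXR) and by 1 base (AGGTCANAGGTCA, as bound by PPAR with RXR) with up to 2 mismatches outside N, the E-box CACGTG, the AP-1 site TGACTCA and the TATA box TATAAA. Of 32841 windows of 300 bases in the same table, 16.3%, 3.02%, 3.86%, 7.15%, 5.20% and 13.6% held these, in that order. Capitals mark matches. The *Cd36* window (chr5:17835847-17836146, minus strand) held the hexamer on its opposite strand, starting 228 bases before the start, and a spacing-1 repeat with 2 mismatches at 63 bases. This window lay at a start inside the gene and not at its outermost end on that strand, 17888959. The *Olr1*, *Plin2* and *Abca1* windows each included the corresponding end of their gene. In *Olr1* (chr6:129507116-129507415, minus strand) the hexamer began 175 bases and an AP-1 match 60 bases before the start.
Cd36: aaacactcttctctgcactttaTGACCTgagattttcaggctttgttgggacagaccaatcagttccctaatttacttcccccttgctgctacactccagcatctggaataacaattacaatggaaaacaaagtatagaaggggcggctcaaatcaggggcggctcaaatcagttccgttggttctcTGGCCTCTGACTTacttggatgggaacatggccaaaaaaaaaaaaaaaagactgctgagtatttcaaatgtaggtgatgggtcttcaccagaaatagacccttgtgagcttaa
Olr1: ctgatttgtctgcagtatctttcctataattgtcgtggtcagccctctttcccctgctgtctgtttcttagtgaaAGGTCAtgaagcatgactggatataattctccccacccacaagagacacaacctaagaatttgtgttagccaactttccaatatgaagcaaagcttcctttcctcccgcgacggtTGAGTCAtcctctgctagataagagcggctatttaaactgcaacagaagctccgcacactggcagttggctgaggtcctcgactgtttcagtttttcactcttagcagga
GC content was 43.0% and 46.0% in these windows, against a median of 52.7% over all windows. A match describes letters only and is no evidence of binding in these cells.

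Fatty acid activation was represented by *Acsl1*, the gene of a long-chain acyl-CoA synthetase (chromosome 8, 46471037 to 46536051). It was highest in Ly6Ghi, with 80.3, 81.7 and 79.7 CPM, and close in the other groups, with 55.2, 55.4 and 56.3 CPM in Ly6Glow and 52.8, 53.4 and 54.1 CPM in NL. Ly6Ghi lay 1.51-fold above NL (0.59 ± 0.041, adjusted p = 1.21e-11), just past the fold threshold, and this call was lost with upper-quartile normalization (0.40), on log2(FPKM + 1) (0.12) and without Ly6Ghi replicate 2 (0.57). Ly6Glow was below Ly6Ghi by less than the threshold (−0.53 ± 0.044, adjusted p = 7.94e-10), a difference that was called lower on log2(FPKM + 1) (−0.72, limma adjusted p = 2.55e-08). It differed from NL by 0.06 ± 0.045 (adjusted p = 0.231), which turned to −0.60 and a call of lower on log2(FPKM + 1). Eosinophil markers were likewise highest in Ly6Ghi, at 164 to 173 CPM against 42.3 to 43.9 in Ly6Glow and 59.3 to 62.0 in NL, as were basophil markers, at 43.1 to 45.0 against 25.2 to 28.7 and 26.3 to 29.1 CPM. In Ly6Ghi against NL, 6 of 7 eosinophil and 5 of 6 tested basophil markers were called higher, and 1 basophil marker was called lower. *Siglecf*, on both the eosinophil and the alveolar macrophage list, was not called and averaged 31.4 CPM in Ly6Ghi, 29.5 in Ly6Glow and 38.7 in NL. The part of eosinophils and basophils in the *Acsl1* values was not tested.

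The genes of the enzymes that complete triglyceride synthesis went different ways in Ly6Ghi against NL, and both were higher in Ly6Glow than in Ly6Ghi. Only *Dgat2* was called by edgeR. *Dgat2* (chromosome 7, 99153663 to 99182713) encodes the DGAT enzyme that works on the surface of droplets and rose at each step. NL libraries held 129, 118 and 133 CPM, Ly6Ghi libraries 337, 346 and 337 CPM, and Ly6Glow libraries 612, 635 and 587 CPM. Without any overlap between groups, Ly6Ghi exceeded NL 2.69-fold (1.43 ± 0.042, adjusted p = 2.11e-18), Ly6Glow exceeded NL 4.83-fold (2.27 ± 0.042, adjusted p = 8.37e-22) and Ly6Glow exceeded Ly6Ghi 1.80-fold (0.85 ± 0.040, adjusted p = 6.21e-14). On log2(FPKM + 1) these log2 fold changes were 0.95, 1.56 and 0.61, all still called. The neutrophil marker sum was also higher in both tumor-bearing groups than in NL (above), with 11 of 12 neutrophil markers called higher in each. The part of a differing neutrophil share in the rises over NL, of *Dgat2* and of the other members that rose, was not tested.

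*Dgat1*, the gene of the unrelated DGAT enzyme of the endoplasmic reticulum (chromosome 15, 76502012 to 76512021), was lowest in Ly6Ghi. It was 187, 191 and 180 CPM in Ly6Ghi, 258, 266 and 256 CPM in Ly6Glow and 284, 259 and 284 CPM in NL, where Ly6Glow and NL overlapped. No comparison passed the fold threshold: Ly6Glow over Ly6Ghi was 0.48 ± 0.040 (adjusted p = 9.31e-10), Ly6Ghi over NL −0.57 ± 0.039 (adjusted p = 9.17e-12) and Ly6Glow over NL −0.09 ± 0.039 (adjusted p = 0.0456). On log2(FPKM + 1) this last value was −0.76 and was called lower (limma adjusted p = 1.62e-09). The value for Ly6Ghi over NL lay just inside the threshold and was past it with upper-quartile normalization (−0.76), on log2(FPKM + 1) (−0.99), without Ly6Ghi replicate 2 (−0.60) and without NL replicate 2 (−0.61). Per transcript length, the ratio of *Dgat2* to *Dgat1* FPKM was 0.412, 0.409 and 0.420 in NL, 1.58, 1.60 and 1.64 in Ly6Ghi and 2.13, 2.11 and 2.02 in Ly6Glow. *Dgat1* was therefore the more abundant of the pair in each NL library and *Dgat2* in each library from tumor-bearing lung.

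*Plin2*, the gene of the perilipin that coats droplets in most cells (chromosome 4, 86626910 to 86670217), had the highest FPKM of the 10 members in every group, at 286 ± 6.00 in NL, 267 ± 1.10 in Ly6Ghi and 325.5 ± 13.8 in Ly6Glow (mean ± SD, n = 3). Its CPM was 397, 374 and 395 in NL, 507, 501 and 502 in Ly6Ghi and 720, 758 and 694 in Ly6Glow. The groups did not overlap, yet only Ly6Glow over NL passed the fold threshold (1.86-fold, 0.90 ± 0.035, adjusted p = 3.32e-16), and on log2(FPKM + 1) that value was 0.18. Ly6Ghi over NL was 0.37 ± 0.035 (adjusted p = 2.08e-09) and turned to −0.10 on log2(FPKM + 1), and Ly6Glow over Ly6Ghi was 0.52 ± 0.035 (adjusted p = 2.70e-11), past the threshold with DESeq2 (0.59). The *Plin2* window (chr4:86670010-86670309, minus strand) held an E-box starting 4 bases before the start and, on the opposite strand, a spacing-1 repeat with 2 mismatches at 225 bases, which contains the hexamer match.
Plin2: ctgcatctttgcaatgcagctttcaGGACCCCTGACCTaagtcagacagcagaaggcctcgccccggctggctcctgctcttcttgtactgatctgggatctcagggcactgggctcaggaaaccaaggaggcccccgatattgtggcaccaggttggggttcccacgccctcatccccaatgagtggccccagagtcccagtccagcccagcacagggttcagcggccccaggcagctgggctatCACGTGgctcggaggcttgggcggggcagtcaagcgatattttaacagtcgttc
The window had a GC content of 60.7%.

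*Pnpla2* encodes adipose triglyceride lipase (chromosome 7, 141455188 to 141460743) and rose together with *Dgat2*. NL held 97.6, 79.2 and 94.9 CPM, Ly6Ghi 167, 168 and 156 CPM, and Ly6Glow 249, 257 and 235 CPM. The order NL, Ly6Ghi, Ly6Glow held in every library, with Ly6Ghi 1.81-fold over NL (0.85 ± 0.057, adjusted p = 6.13e-12), Ly6Glow 2.73-fold over NL (1.45 ± 0.057, adjusted p = 3.49e-16) and Ly6Glow 1.51-fold over Ly6Ghi (0.59 ± 0.056, adjusted p = 6.25e-09). The last call was close to the fold threshold and was lost without the filter on low counts (0.576), on log2(FPKM + 1) (0.35), without Ly6Ghi replicate 3 (0.56) and without Ly6Glow replicate 2 (0.57). On log2(FPKM + 1), Ly6Ghi over NL came to 0.39 and was no longer called. The FPKM of *Plin2* was 5.92, 6.90 and 6.05 times that of *Pnpla2* in NL, 4.38, 4.31 and 4.63 times in Ly6Ghi and 4.15, 4.26 and 4.27 times in Ly6Glow.

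Genes whose products act on this lipase also differed between the tumor-bearing groups. *G0s2* and *Hilpda*, both of which encode inhibitors of adipose triglyceride lipase, were called higher in Ly6Glow than in Ly6Ghi, at 909, 919 and 861 against 520, 500.1 and 480.2 CPM for *G0s2* (1.79-fold, 0.84 ± 0.044, adjusted p = 3.44e-13) and at 127, 123 and 122 against 56.8, 57.0 and 55.4 CPM for *Hilpda* (2.20-fold, 1.14 ± 0.042, adjusted p = 1.37e-15). *Abhd5*, which encodes its coactivator, was called lower, at 46.6, 46.6 and 51.2 against 105, 106 and 108 CPM (2.22-fold, −1.15 ± 0.051, adjusted p = 3.10e-14). The lipase transcript and those of its inhibitors were thus both higher in Ly6Glow, and that of its coactivator was lower.

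The cholesterol transporters moved in opposite directions. *Abca1*, whose product loads cholesterol onto lipid-poor apolipoprotein A-I (chromosome 4, 53030789 to 53159988), had the largest rise of the 10 members between the tumor-bearing groups. It stood at 140, 141 and 140 CPM in NL, 198, 201 and 201 CPM in Ly6Ghi and 564, 550 and 583 CPM in Ly6Glow. Ly6Glow was 2.83-fold over Ly6Ghi (1.5 ± 0.033, adjusted p = 3.63e-19) and 4.04-fold over NL (2.01 ± 0.034, adjusted p = 1.71e-22), while Ly6Ghi over NL stayed under the fold threshold (0.51 ± 0.034, adjusted p = 5.30e-12) and was 0.045 on log2(FPKM + 1) (limma adjusted p = 0.250). The *Abca1* window (chr4:53159846-53160145, minus strand) held an E-box starting 147 bases and a TATA box 29 bases before the start, 26 CpG dinucleotides against a median of 7 over all windows, and a GC content of 62.7%.
Abca1: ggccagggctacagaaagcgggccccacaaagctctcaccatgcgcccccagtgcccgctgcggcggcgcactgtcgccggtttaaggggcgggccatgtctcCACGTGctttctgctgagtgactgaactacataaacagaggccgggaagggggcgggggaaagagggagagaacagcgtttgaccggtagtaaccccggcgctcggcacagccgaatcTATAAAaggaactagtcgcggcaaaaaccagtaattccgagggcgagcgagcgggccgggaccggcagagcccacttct
The windows of *Pnpla2* (65.3% GC) and *Acsl1* (74.0% and 50% GC) held none of the sequences searched.

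*Abcg1*, whose product passes cholesterol to HDL (chromosome 17, 31057694 to 31117984), was highest in NL. NL held 264, 248 and 264 CPM, Ly6Ghi 72.9, 82.0 and 70.6 CPM, and Ly6Glow 48.5, 52.8 and 48.7 CPM. Ly6Ghi fell 3.44-fold against NL (−1.78 ± 0.049, adjusted p = 6.46e-19) and Ly6Glow 5.17-fold (−2.37 ± 0.053, adjusted p = 1.72e-20). Ly6Glow was 1.5-fold below Ly6Ghi (−0.59 ± 0.058, adjusted p = 1.58e-08), close to the threshold, and this call was lost with DESeq2 (−0.52), without Ly6Ghi replicate 2 (−0.52), without Ly6Glow replicate 1 (−0.57) and without Ly6Glow replicate 3 (−0.57). Macrophages and endothelial cells express *Abcg1* as well, and the endothelial sum was higher in NL (above). The monocyte and macrophage sum was 1277 to 1394 CPM in NL, but its genes went different ways: 10 of 14 were called lower and 1, *Ccr2*, higher in each tumor-bearing group against NL. Its most abundant gene, *Csf1r*, averaged 217 CPM in Ly6Ghi, 299 in Ly6Glow and 261 in NL with no call, *Apoe* 108, 104 and 396 CPM, and *Cd68* 131, 177 and 198 CPM. *Ccr2* is named as the exception and was chosen after its values were seen. Their part in the *Abcg1* values was not tested. Within libraries, *Abca1* FPKM was 0.299, 0.322 and 0.299 times *Abcg1* FPKM in NL, 1.54, 1.38 and 1.61 times in Ly6Ghi and 6.57, 5.88 and 6.77 times in Ly6Glow. The transporter gene with more FPKM was thus *Abcg1* in NL and *Abca1* in both groups from tumor-bearing lung, by a wider margin in Ly6Glow.

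**Figure D3:**
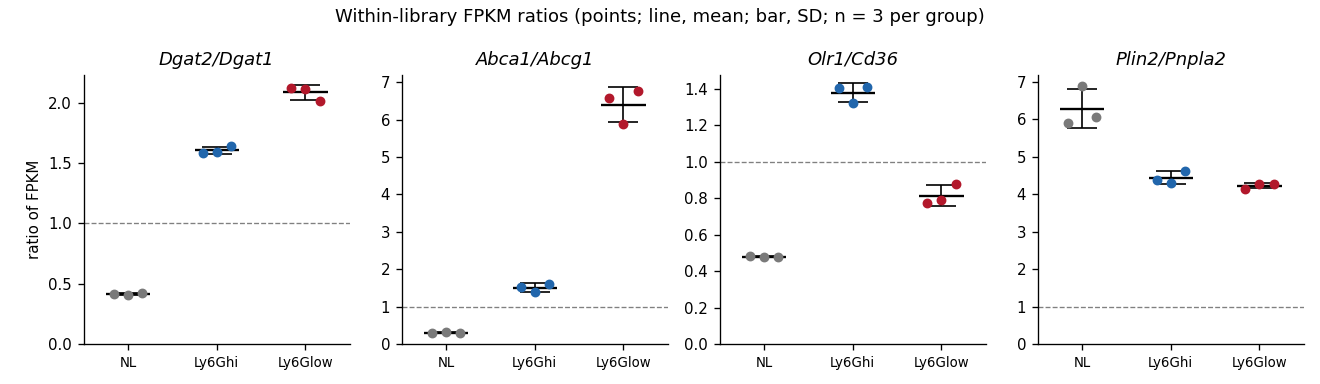
Ratios of FPKM between pairs of members (vertical axes, no unit, starting at 0) in each library of NL (grey), Ly6Ghi (blue) and Ly6Glow (red), with the group mean (line) and SD (bar, n = 3). The dashed line marks equal FPKM. *Dgat2*/*Dgat1* and *Abca1*/*Abcg1* lay below it in NL, at means of 0.414 and 0.307, and above it in the other groups, reaching 2.09 and 6.40 in Ly6Glow.

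**Figure D4:**
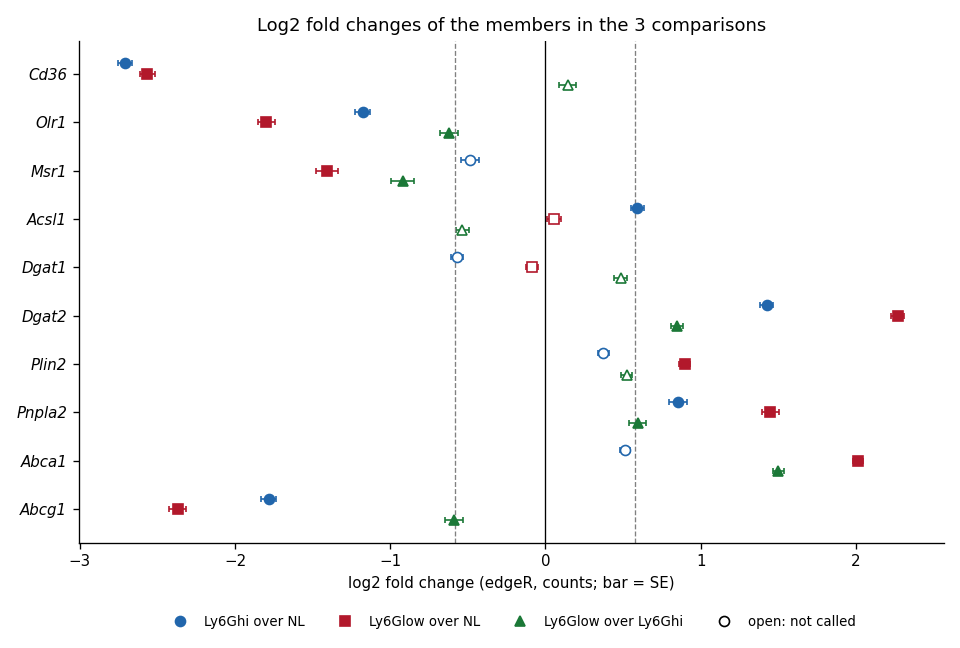
Log2 fold changes (horizontal axis) of the 10 genes for Ly6Ghi over NL (circles), Ly6Glow over NL (squares) and Ly6Glow over Ly6Ghi (triangles), with SE bars from the edgeR fit. Filled symbols are called and dashed lines mark the fold threshold of 0.58. *Dgat2*, *Pnpla2* and *Abca1* lay to the right in each comparison and *Olr1*, *Msr1* and *Abcg1* to the left.

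Within a group the members' order was read from FPKM, which is per length. In NL it ran from *Plin2* (286) through *Dgat1* (182), *Cd36* (118), *Dgat2* (75.2), *Abcg1* (58.6), *Olr1* (56.2), *Pnpla2* (45.8), *Msr1* (23.4) and *Acsl1* (18.5) to *Abca1* (17.96). The libraries of *Abcg1* and *Olr1*, and those of *Acsl1* and *Abca1*, overlapped there. In Ly6Ghi *Plin2* (267), *Dgat2* (146), *Dgat1* (91.2) and *Pnpla2* (60.1) led, followed by *Acsl1* (20.3), *Abca1* (18.6), *Olr1* (17.98), *Cd36* (13.0), *Abcg1* (12.3) and *Msr1* (11.3), of which *Cd36* overlapped *Abcg1* and *Abcg1* overlapped *Msr1*. Ly6Glow had the same leading 4 with *Dgat2* at 223, *Dgat1* at 107 and *Pnpla2* at 77.0, and then *Abca1* (44.6), *Cd36* (12.2), *Acsl1* (11.9), *Olr1* (9.95), *Abcg1* (6.98) and *Msr1* (5.00), with *Cd36* and *Acsl1* overlapping. *Cd36* was the third in NL, the eighth in Ly6Ghi and the sixth in Ly6Glow, and *Abca1*, last in NL, was the fifth in Ly6Glow.

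A further 113 genes of lipid uptake, activation, storage, lipolysis, efflux, regulation, oxidation and synthesis were counted to place the members, and 105 of them were tested. Of these, 7 were called higher and 26 lower in Ly6Glow than in Ly6Ghi, 25 higher and 50 lower in Ly6Ghi than in NL, and 26 higher and 53 lower in Ly6Glow than in NL. Of all tested genes, 9.29% were called higher and 15.9% lower, 26.3% and 36.6%, and 28.7% and 40.8%, in the same order. In either direction the shares of all tested genes were 25.2%, 62.9% and 69.5%. The median log2 fold changes of the 105 genes were −0.23, −0.46 and −0.65, each below that of all tested genes (−0.04, −0.09 and −0.16).

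Uptake genes were called in 1 direction against NL. Of 16 tested, 13 were lower in Ly6Ghi and 13 in Ly6Glow than in NL, and 3 were lower in Ly6Glow than in Ly6Ghi. Of all tested genes, 36.6%, 40.8% and 15.9% were called lower in these comparisons and 26.3%, 28.7% and 9.29% higher. Between the tumor-bearing groups the uptake counts thus lay near the shares of all genes. By edgeR or DESeq2, 0 uptake genes were higher throughout. At an unadjusted p of at most 0.05 and any fold, 0, 1 and 4 uptake genes were higher in the same order. *Lpl*, which encodes the lipase that frees fatty acids from lipoproteins, held 398, 430.5 and 399 CPM in NL, 70.7, 71.8 and 77.9 CPM in Ly6Ghi and 9.18, 9.26 and 8.39 CPM in Ly6Glow. It had the largest fall of the 105 genes between Ly6Glow and Ly6Ghi among those with at least 10 CPM in the higher group (8.21-fold, −3.04 ± 0.073, adjusted p = 1.21e-18) and fell 45.7-fold against NL in Ly6Glow. The scavenger receptor gene *Marco*, also among the alveolar macrophage markers, was 14.9 to 17.1 CPM in NL and under 1 CPM elsewhere (18.8-fold lower in Ly6Ghi and 28.7-fold in Ly6Glow). Of the 16 tested, 4 are also in the marker lists (*Marco*, *Fabp4*, *Cd68* and *Gpihbp1*). Without these 4, a count chosen after seeing the data, 9 of 12 were lower in Ly6Ghi and 10 of 12 in Ly6Glow than in NL, 2 of 12 were lower in Ly6Glow than in Ly6Ghi, and 0 was higher. This count cannot separate the part of other cells, because the marker lists do not hold all of their transcripts. The macrophage and endothelial markers fell in the same direction against NL (13 and 14 of 16 alveolar macrophage markers called lower in Ly6Ghi and Ly6Glow, and 9 of 9 endothelial markers in both), and the part of such cells in the uptake counts was not tested. *Cav1* (caveolin, 10.3-fold), *Vldlr* (the VLDL receptor, 8.49-fold) and *Cxcl16* (a chemokine that also binds oxidized LDL, 8.49-fold) were lower in Ly6Ghi than in NL.

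Storage genes had calls in both directions. Of 19 tested, 4 were higher and 5 lower in Ly6Glow than in Ly6Ghi, 7 and 7 in Ly6Ghi against NL, and 8 and 7 in Ly6Glow against NL. The shares of all tested genes were 9.29% and 15.9%, 26.3% and 36.6%, and 28.7% and 40.8%. *Gpat3*, encoding an acyltransferase of the first step of glycerolipid synthesis, was 272, 277 and 274 CPM in Ly6Glow against 119, 124 and 118 CPM in Ly6Ghi (2.28-fold, 1.19 ± 0.035, adjusted p = 3.17e-17), and 186 to 188 CPM in NL. *Gpam*, encoding its mitochondrial counterpart, was 9.32-fold lower in Ly6Ghi than in NL. The cholesterol esterification gene *Soat2* was 1.71-fold higher in Ly6Glow than in Ly6Ghi and 4.46-fold higher than in NL, and *Soat1* was 2.48-fold higher in Ly6Glow than in NL. *Agpat2*, of the next acylation step, rose 4.67-fold in Ly6Ghi over NL and was 1.96-fold lower in Ly6Glow than in Ly6Ghi. *Plin3*, of another droplet coat protein, rose 2.85-fold in Ly6Ghi over NL. *Lpin1*, encoding a phosphatidate phosphatase, was 28.8-fold lower in Ly6Glow than in NL. *Cidec*, whose product fuses droplets, had 4 counts over the 3 Ly6Glow libraries (0 to 2 per library) and 22.1 to 27.3 CPM in NL, and 2.97 to 3.57 CPM in Ly6Ghi; with so few counts no fold is given.

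The other roles had calls in both directions against NL. Of all tested genes, 9.29% were called higher and 15.9% lower in Ly6Glow against Ly6Ghi. Against NL the shares were 26.3% and 36.6% in Ly6Ghi and 28.7% and 40.8% in Ly6Glow. Activation had 8 genes tested, with 0 higher and 1 lower in Ly6Glow against Ly6Ghi and 3 higher and 2 lower against NL in both groups, among them *Dbi* (acyl-CoA binding protein), 3.00-fold higher in Ly6Glow than in NL. Lipolysis had 11, with 2 higher and 5 lower between the tumor-bearing groups, 3 and 5 in Ly6Ghi against NL and 2 and 5 in Ly6Glow against NL; *Pnpla1*, a relative of *Pnpla2* known for skin lipid synthesis, was 2.91-fold and 2.68-fold higher than in NL. Efflux had 14, with 0 higher and 2 lower, 5 and 6, and 4 and 7 in the same order. Oxidation had 16, with 0 and 4, 3 and 4, and 3 and 5, where *Acadl* (long-chain acyl-CoA dehydrogenase) was 3.62-fold and 3.56-fold higher than in NL, *Cpt2* (mitochondrial fatty acid import) 2.67-fold higher in Ly6Ghi than in NL and *Acads* (the short-chain dehydrogenase) 1.92-fold lower in Ly6Glow than in Ly6Ghi. Synthesis had 12, with 0 and 4, 2 and 8, and 2 and 9. The counts of 0 higher between the tumor-bearing groups were also 0 by DESeq2, and at an unadjusted p of at most 0.05 and any fold were 4 in activation, 2 in efflux, 1 in oxidation and 0 in synthesis.

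Among 9 regulators tested, 1 was higher and 2 lower in Ly6Glow than in Ly6Ghi, 2 higher and 5 lower in Ly6Ghi than in NL, and 4 higher and 5 lower in Ly6Glow than in NL. The shares of all tested genes were 9.29% and 15.9%, 26.3% and 36.6%, and 28.7% and 40.8%. *Cebpb*, encoding a transcription factor of emergency granulopoiesis, was 2205, 2419 and 2121 CPM in Ly6Glow against 1232, 1214 and 1186 CPM in Ly6Ghi (1.86-fold, 0.89 ± 0.056, adjusted p = 8.43e-12). *Cebpa*, of steady-state granulopoiesis, was 11.5, 10.99 and 9.45 against 21.2, 20.6 and 21.3 CPM (1.98-fold lower, adjusted p = 7.00e-09). *Pparg*, encoding a nuclear receptor that promotes lipid storage and is needed by alveolar macrophages, was 24.5 to 28.0 CPM in NL, 4.92 to 6.00 in Ly6Ghi and 0.73 to 1.13 in Ly6Glow (27.7-fold lower in Ly6Glow than in NL, adjusted p = 2.93e-18). It is also an alveolar macrophage marker, and the sum of those markers fell in the same order, though *Chil3* was highest in Ly6Ghi (above).

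**Figure D5:**
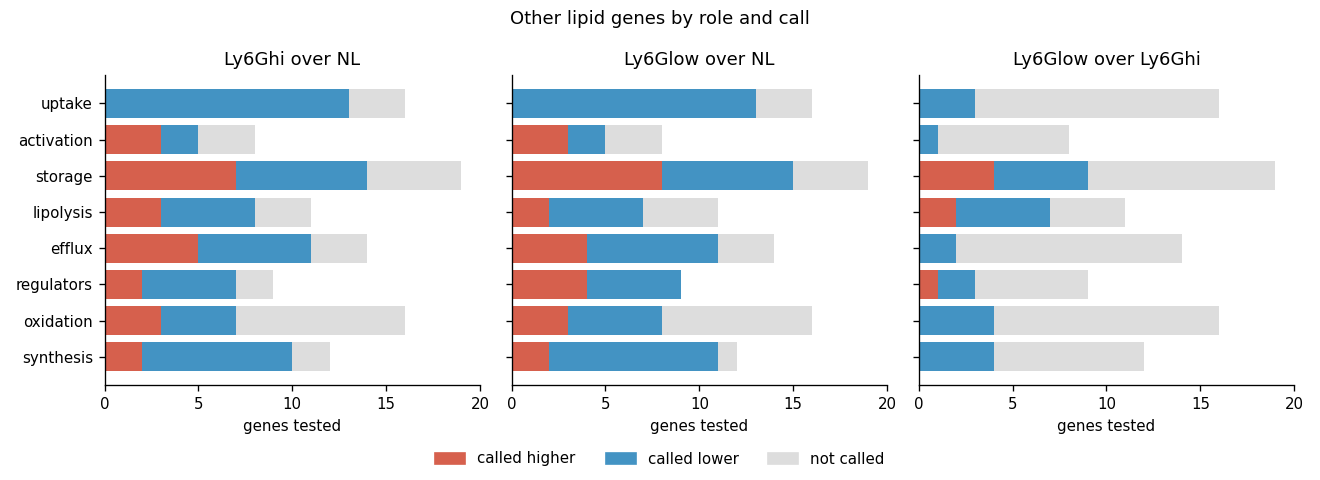
Numbers of tested genes (horizontal axis) in 8 roles of lipid metabolism, the 10 members left out, called higher (red), lower (blue) or not called (grey) in each comparison. Uptake had 13 of 16 genes lower and none higher against NL in both tumor-bearing groups, and storage had calls in both directions. Of all tested genes, 36.6% were called lower in Ly6Ghi and 40.8% in Ly6Glow than in NL.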

How the data were processed

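Poly(A) RNA of sorted neutrophils was sequenced with strand-specific 150-base paired-end reads. The authors deposited expected counts (estimated read counts) per gene and FPKM (fragments scaled to transcript length and library size), with genome build mm10 in their processing notes. The aligner and counter are not given in the sources used here. Estimated counts (37.9% whole) were rounded. Only libraries' columns were used. The test was edgeR 4.0.16 in R 4.3.3 (quasi-likelihood, TMM, filterByExpr, all 9 libraries, Benjamini-Hochberg). It replaced the study's DESeq2, whose threshold of 0.58 was kept. DESeq2 1.42.0 and limma 3.58.1 gave alternatives, and the code was tested on simulated data. Transcript length enters FPKM only, and FPKM was not TMM-scaled. Members and lists were chosen with earlier results of these data known. All members are named. Other lipid genes were named if among the 5 largest rises or falls called, with no overlap and at least 10 CPM, and markers by highest mean CPM. Positions and promoters are from RefSeq GRCm38.p6.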

Additional observations from a re-analysis of the deposited data

How the results depend on the processing

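Several values changed with the scaling. The median log2 fold change of all genes moved from −0.04, −0.09 and −0.16 (Ly6Glow over Ly6Ghi, Ly6Ghi over NL, Ly6Glow over NL) to −0.13, −0.32 and −0.49 on log2(FPKM + 1), and the share of called genes that were higher from 36.8%, 41.8% and 41.3% to 14.3%, 21.8% and 14.9%. Beside those shifts, *Acsl1* in Ly6Glow over NL turned to −0.13 with upper-quartile normalization and with at least 10 counts in every library and to −0.60, −0.63 and −0.60 in the 3 FPKM settings (pseudocount 1, 0.1 and 1 with an FPKM filter), *Cd36* in Ly6Glow over Ly6Ghi to −0.0858, −0.0919 and −0.0858, and *Plin2* in Ly6Ghi over NL to −0.10 in each. *Dgat1* in Ly6Glow over NL turned to 0.0049 with DESeq2's size factors and with DESeq2. Members called higher in Ly6Ghi over NL numbered 5 without a fold threshold, 1 at a threshold of 1 and 1 in each FPKM setting, and members called lower numbered 5 with upper-quartile normalization, at least 10 counts, no threshold and each FPKM setting. Of all 14108 tested genes, 5629 were higher and 6301 lower without a threshold, and 1900 and 4112 at a threshold of 1. The FPKM settings had 1429, 1756 and 1426 higher and 5134, 6683 and 4652 lower, the last setting with 11820 tested. Upper-quartile normalization had 5755 lower, and at least 10 counts 3547 of 11328. For Ly6Glow over Ly6Ghi, 6 were higher without a threshold and 1 at a threshold of 1, and lower members numbered 1 with DESeq2's size factors and with DESeq2 and 0 at a threshold of 1. Of all 14108 tested genes, 3686 were higher and 4182 lower without a threshold, and 342 and 963 at a threshold of 1. Lower genes numbered 1967 with DESeq2's size factors and 1795 with DESeq2. Of the other lipid genes, Ly6Ghi over NL had 11 higher at a threshold of 1 and 9, 10 and 9 in the FPKM settings, and Ly6Glow over NL 13 and then 7, 7 and 7. Ly6Glow over Ly6Ghi had 22 higher and 48 lower without a threshold, 2 and 7 at a threshold of 1, and 4 higher on log2(FPKM + 1) with either filter. All tested genes higher in Ly6Glow over NL numbered 2285 at a threshold of 1 and 1125, 1328 and 1120 in the FPKM settings. Those higher in Ly6Glow over Ly6Ghi numbered 320 on log2(FPKM + 1) with either filter. The counts of lipid genes are to be read beside these all-gene counts. Other than where a setting changes the threshold, the cause was not tested. Leaving out each library in turn gave 2 to 3 members higher and 2 to 3 lower in Ly6Glow over Ly6Ghi, 2 to 3 and 3 to 4 in Ly6Ghi over NL, and 4 and 4 in Ly6Glow over NL, and 7 to 8 and 24 to 26, 24 to 25 and 48 to 50, and 24 to 26 and 52 to 53 other lipid genes. Equal replicate numbers did not deviate together (correlations −0.068 to 0.077), and with the replicate number as a block the member counts were 3 and 3, 3 and 3, and 4 and 4 as before, with 25 in place of 26 other lipid genes lower in Ly6Glow than in Ly6Ghi. In all, 234 of the counts under alternatives stayed within 1.5 times the main count and 30 did not. Members had counts of 186 or more in every library, and the effect of depth on their values was not tested.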

Other observations

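The transcript length implied by a library's count, FPKM and total was steady across groups for most members, for example 2202 bases in each group for *Dgat2*. It differed by group for *Msr1*, with means of 2369 bases in NL, 2529 in Ly6Ghi and 2585 in Ly6Glow, and for *Dgat1*, with 1985, 1934 and 1954 bases. Apart from length, the TMM factors enter CPM only.

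Lymphocyte markers summed to 72.8 to 74.0 CPM in Ly6Ghi, 46.5 to 48.6 in Ly6Glow and 75.6 to 76.4 in NL, and epithelial markers that tumor cells share to 28.8 to 29.6, 32.0 to 34.0 and 131 to 141. Adipocyte markers came to 55.7 to 60.2 CPM in Ly6Ghi, 61.7 to 65.5 in Ly6Glow and 46.4 to 56.5 in NL, with *Lipe* at a mean of 52.7, 60.4 and 25.3 CPM, and *Plin1* at 0 in Ly6Glow. *Lipe*, also counted here as a lipolysis gene, thus made up most of the sum in both tumor-bearing groups. *Retn* went the same way at a low level (1.61, 2.95 and 0.78 CPM), and *Cidec* the other way (3.36, 0.10 and 24.5 CPM). *Adipoq* averaged 0.04, 0.08 and 0.11 CPM, so the sum is no measure of adipocytes.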
